A study of Mus musculus with 12 samples.

Results

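The HoxD cluster of the mouse holds 9 homeobox genes (Hoxd1, Hoxd3, Hoxd4, Hoxd8, Hoxd9, Hoxd10, Hoxd11, Hoxd12 and Hoxd13). They were picked out of the 41388 genes of the deposited tables by their Ensembl identifiers, and all 9 were found in every table. Their counts were compared between sensory neurons of dorsal root ganglia (DRG) from spinal levels L6 and S1 (called L6S1) and from levels L3, L4 and L5 (called L345). The 12 RNA-seq libraries formed 4 groups of 3: males and females at each level, with replicates lettered A to C except that those of female L345 are B to D. All animals were adult C57BL/6 mice (C57BL/6J in the series text) aged 3 months. Every group carried the same alleles, namely a floxed Ret allele with a conditional EGFP reporter (RetFloxedEGFP, heterozygous at the Ret locus) and Cre expressed from Scn10a, which encodes the sodium channel NaV1.8 (NaV1.8Cre). For 4 libraries (female L345 D, female L6S1 B and C, male L6S1 C) the titles are written in another style, and that style was treated as a possible batch. In those 4 the genotype field names 1 of the alleles, while the sample source names both. Cells were sorted by EGFP, which selects neurons that expressed from the Ret locus after Cre under NaV1.8 control had acted. Markers of glia, fibroblasts and immune cells were also detected, as given below, so the sort does not show purity. No group without Cre or with an intact Ret locus was included. Each library was 1 pool of 2 to 8 mice and 12 to 32 ganglia, and the pool of male L345 C is given as 5 mice in its pool size and as 3 mice in its treatment text. No source used here says whether L345 and L6S1 pools shared mice, and p-values measure only the spread between pools.

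Hox genes encode homeodomain transcription factors that assign position along the body axis. Within a cluster the genes lie in the order in which they are switched on in the embryo, so that the 3′ genes (low numbers) act from the head end and the 5′ genes (high numbers) are restricted to progressively more caudal tissue. Hoxd9, Hoxd10 and Hoxd11 are known for their roles at lumbar and sacral levels of the skeleton, the spinal motor columns and the limb, and Hoxd1 for a role in nociceptive sensory neurons of the mouse. Neurons keep part of this embryonic code in adult life.

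In the deposited tables (build GRCm38.p2, chromosome 2, plus strand) the cluster runs from Hoxd13 (ENSMUSG00000001819, 74668310 to 74671599) through Hoxd12 (ENSMUSG00000001823, 74675013 to 74677705), Hoxd11 (ENSMUSG00000042499, 74679557 to 74687016), Hoxd10 (ENSMUSG00000050368, 74691924 to 74695105), Hoxd9 (ENSMUSG00000043342, 74697727 to 74700208) and Hoxd8 (ENSMUSG00000027102, 74704615 to 74707933). It goes on with Hoxd4 (ENSMUSG00000101174, 74711929 to 74729160) and Hoxd3 (ENSMUSG00000079277, 74711927 to 74748442), whose gene models start almost together, and ends with Hoxd1 (ENSMUSG00000042448, 74762980 to 74765142). Hoxd13, Hoxd12, Hoxd9, Hoxd8 and Hoxd1 share no exonic base with another gene in the tables. Hoxd11 shared 10.8% and Hoxd10 5.7% of its exonic bases with the same-strand gene model Gm28309, which was listed at 0 in every library. Hoxd3 and Hoxd4 shared 62.3% and 52.3% of their exonic bases with same-strand genes, chiefly with each other and with Gm28230. The values of Hoxd3 and Hoxd4 are therefore uncertain, because no source names the rule for reads in such overlaps or the use of strand in counting.

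The promoters on both sides of the place in the cluster where the calls ended are shown here, since Hoxd9, Hoxd10 and Hoxd11 differed between levels and Hoxd8 did not pass the test. Each window spans a transcript start in RefSeq and lies mostly upstream of it (GRCm38.p6, plus strand), and 10 windows matched the 9 genes because Hoxd11 had 2. Capitals mark matches, on either strand, to TTTAT (a core bound by posterior Hox and Cdx proteins) or to TGATTNAT (a joint Pbx and Hox site), which did not overlap each other in these windows.
Hoxd11, upstream start, chr2:74679308-74679607: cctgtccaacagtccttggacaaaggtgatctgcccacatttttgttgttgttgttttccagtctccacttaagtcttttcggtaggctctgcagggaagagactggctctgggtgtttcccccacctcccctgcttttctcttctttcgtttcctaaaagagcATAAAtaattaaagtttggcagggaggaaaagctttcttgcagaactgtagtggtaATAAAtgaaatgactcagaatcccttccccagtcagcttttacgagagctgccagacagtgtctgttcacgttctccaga
Hoxd11, downstream start, chr2:74682073-74682372: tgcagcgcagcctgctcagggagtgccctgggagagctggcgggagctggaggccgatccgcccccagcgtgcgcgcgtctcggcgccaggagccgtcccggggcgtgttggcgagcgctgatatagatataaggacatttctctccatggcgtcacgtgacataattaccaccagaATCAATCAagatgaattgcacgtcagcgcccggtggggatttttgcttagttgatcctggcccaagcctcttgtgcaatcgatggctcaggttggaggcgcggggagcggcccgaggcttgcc
Hoxd10, chr2:74691641-74691940: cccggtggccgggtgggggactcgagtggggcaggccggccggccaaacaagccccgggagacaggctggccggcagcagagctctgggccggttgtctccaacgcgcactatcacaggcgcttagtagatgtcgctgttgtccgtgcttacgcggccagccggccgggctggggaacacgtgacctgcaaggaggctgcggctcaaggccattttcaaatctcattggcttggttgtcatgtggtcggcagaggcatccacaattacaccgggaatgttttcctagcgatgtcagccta
Hoxd9, chr2:74697513-74697812: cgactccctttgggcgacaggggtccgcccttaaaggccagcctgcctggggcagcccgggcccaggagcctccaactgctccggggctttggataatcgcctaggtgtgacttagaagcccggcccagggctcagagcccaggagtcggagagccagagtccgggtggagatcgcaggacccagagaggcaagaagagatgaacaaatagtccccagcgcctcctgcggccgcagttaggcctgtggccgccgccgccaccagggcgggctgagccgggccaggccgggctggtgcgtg
Hoxd8, chr2:74704365-74704664: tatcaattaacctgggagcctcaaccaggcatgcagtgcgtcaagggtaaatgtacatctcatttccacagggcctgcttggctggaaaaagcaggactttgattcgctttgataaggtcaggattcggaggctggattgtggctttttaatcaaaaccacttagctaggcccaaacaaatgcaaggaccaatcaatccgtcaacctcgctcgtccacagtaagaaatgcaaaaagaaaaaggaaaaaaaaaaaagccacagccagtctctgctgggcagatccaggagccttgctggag

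TTTAT was present in 4 of the 10 HoxD windows (Hoxd13, the upstream Hoxd11 window, Hoxd3 and Hoxd4) and in 40.0% of 32851 RefSeq promoter windows of the same length. TGATTNAT was present in 1 of 10 (the downstream Hoxd11 window) and in 3.22% of all windows. The direct repeat known as DR5, bound by retinoic acid receptors, was found in 0 of 10 and in 0.00913% of all windows. The Hoxd10, Hoxd9 and Hoxd8 windows above held none of the 3 motifs. GC content was 62.7% for Hoxd10, 68.3% for Hoxd9, 46.7% for Hoxd8 and 45.7% and 62.0% for the windows of Hoxd11, beside a median of 52.7% over all windows. A match describes letters in a window and says nothing about binding in these cells.

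Total counts per library were 16176436 to 26694404, so that 3 counts, the limit that a count of 0 allows, equalled 0.112 to 0.185 CPM (counts scaled to a common library total). That limit covers counting error only, since the reads carried no molecular identifiers. Levels below are CPM scaled with TMM factors, except where they are given per kilobase of gene length (RPKM). The sorted-cell label was checked against 14 sensory neuron markers, all of them detected, with summed levels of 17478 to 27125 CPM (marker sums use each library's own total, without TMM). Of the markers of spinal cord and autonomic neurons, Mnx1 and Phox2a were at 0 in all libraries and the 9 together summed to 2.49 to 9.09 CPM. Female L6S1 libraries resembled each other less (Spearman correlation across genes 0.958 to 0.963) than those of the other groups (0.986 to 0.993), and no libraries were duplicates. In bulk samples, fewer cells that express a gene and less RNA per cell cannot be told apart.

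Both 5′ genes, Hoxd13 and Hoxd12, which in the embryo belong to the most caudal and distal structures, were at or near 0. Hoxd13 was listed at 0 counts in 12 of 12 libraries. Hoxd12 had 1 count in female L6S1 A and 0 counts in the other 11 libraries. At this depth neither gene was detectable above the 3-count limit at either level.

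Hoxd11, a gene of the caudal trunk and limb, was the most 5′ member with a clear signal. In male L345 A, B and C it had 2.45, 0.152 and 1.33 CPM, against 2.77, 2.74 and 1.63 CPM in female L345 B, C and D. In L6S1 it had 16.4, 24.0 and 24.3 CPM in males A, B and C, and 17.0, 22.1 and 19.3 CPM in females A, B and C. Every L6S1 library lay above every L345 library, and the lowest value by far was that of male L345 B, which rested on 3 counts. The log2 fold change of L6S1 against L345 was 3.53 ± 0.35 (SE; 11.5-fold; edgeR quasi-likelihood adjusted p = 0.000112), and 6 of 6 L6S1 libraries were above the L345 mean of their sex.

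Hoxd10, which shapes lumbar motor neuron identity and the hindlimb, had the highest level of the cluster in L6S1. The male L345 libraries A, B and C had 8.59, 1.01 and 6.63 CPM, against 8.62, 8.48 and 6.20 CPM in female L345 B, C and D. In L6S1 it reached 55.0, 67.0 and 60.4 CPM in males and 75.7, 91.2 and 72.7 CPM in females. The levels were again separate, with male L345 B (20 counts) far below the other 5 L345 libraries. The log2 fold change was 3.42 ± 0.34 (SE; 10.7-fold; edgeR adjusted p = 0.000105; 6 of 6 libraries higher).

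Hoxd9, the next gene towards the 3′ end and a partner of the other group 9 genes in lumbar patterning, rose by less. Its levels were 3.35, 1.98 and 3.86 CPM in male L345 (A, B, C), against 2.92, 3.95 and 4.27 CPM in female L345 B, C and D. In L6S1 they were 7.15, 9.23 and 11.6 CPM in males and 9.28, 6.56 and 10.9 CPM in females. No L6S1 library fell into the L345 range, and male L345 B was once more the lowest of all. The log2 fold change was 1.43 ± 0.21 (SE; 2.69-fold; edgeR adjusted p = 0.00255; 6 of 6 libraries higher).

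Hoxd8, a trunk gene whose embryonic domain reaches further forward, was expressed at both levels. It had 19.2, 21.0 and 22.2 CPM in male L345, 21.6, 24.2 and 29.8 CPM in female L345, 19.3, 25.5 and 27.3 CPM in male L6S1, and 25.1, 36.6 and 27.8 CPM in female L6S1. The ranges overlapped, and male L345 B (21.0 CPM) did not stand apart here. The log2 fold change was 0.23 ± 0.14 (SE; 95% interval -0.08 to 0.53; edgeR adjusted p = 0.315), with 4 of 6 L6S1 libraries above the L345 mean of their sex.

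Of the 3′ genes, Hoxd1 was the one with enough reads for a test. It had 2.69, 2.84 and 3.02 CPM in male L345, 2.55, 4.18 and 2.82 CPM in female L345, 1.79, 1.65 and 2.67 CPM in male L6S1, and 2.32, 1.91 and 2.05 CPM in female L6S1. All 6 L6S1 libraries were below the L345 mean of their sex, yet male L6S1 C lay inside the L345 range. The log2 fold change was -0.54 ± 0.20 (SE; 95% interval -0.97 to -0.12 before adjustment), and it missed the threshold (edgeR adjusted p = 0.112).

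Hoxd3 and Hoxd4, which pattern the neck region, were close to the counting limit. Hoxd3 had 5 to 11 counts in the L345 libraries (53 in all) and 1 to 8 in the L6S1 libraries (26 in all). Hoxd4 had 4 to 12 counts (45 in all) and 0 to 6 counts (19 in all). Both were removed by the filter on low counts. In a fit without that filter their log2 fold changes were -1.05 ± 0.54 for Hoxd3 (edgeR adjusted p = 0.305) and -1.18 ± 0.61 for Hoxd4 (edgeR adjusted p = 0.306).

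**Figure D1:**
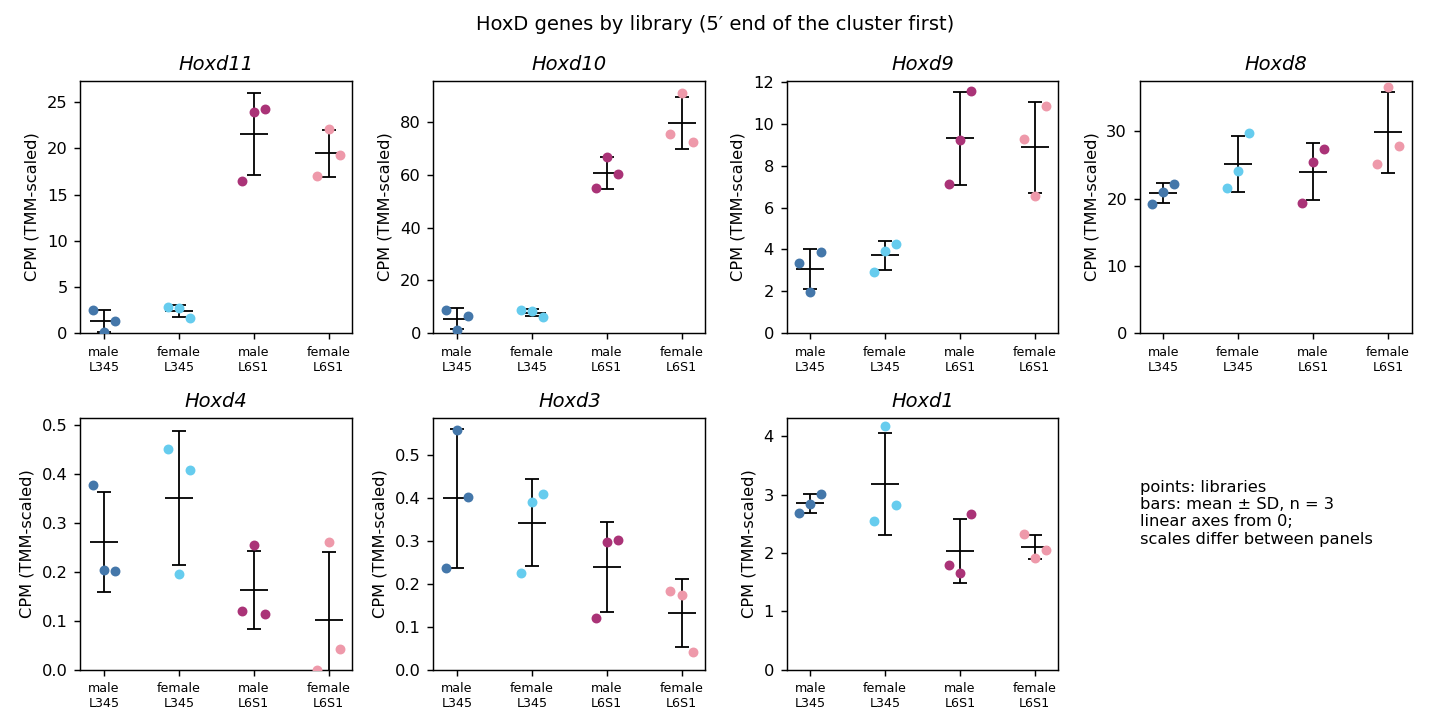
TMM-scaled CPM (linear axes from 0, a scale per panel) of 7 HoxD genes in the 12 libraries, with points for libraries and bars for the mean ± SD of 3 libraries (the lower bar of Hoxd4 in female L6S1 is clipped at 0). Hoxd11, Hoxd10 and Hoxd9 were separate between levels, and male L345 B was the lowest library for each of them.

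In all, 5 of the 9 genes passed the filter, and each of the 5 had at least 5 of 6 L345 libraries above the level that the filter asks for, so none passed through L6S1 alone. Of these 5, 3 were called higher at L6S1 and 0 lower at an adjusted p under 0.05. Over all 15281 genes tested, 1.45% were called higher, 0.877% lower and 2.33% in either direction. The share of all genes whose ranges were separate between levels was not counted. Separate ranges also occurred without a call, as for the flanking gene Wipf1 and the cofactor gene Meis1 (edgeR adjusted p = 0.0665 and 0.0871). The median log2 fold change of the 5 genes was 1.43, beside -0.06 for all genes tested. Among these 5 genes the fold change followed their order, from 3.53 and 3.42 at Hoxd11 and Hoxd10 through 1.43 at Hoxd9 and 0.23 at Hoxd8 to -0.54 at Hoxd1. That order skips Hoxd4 and Hoxd3, which lie between Hoxd8 and Hoxd1. In the fit without the filter their values (-1.18 ± 0.61 and -1.05 ± 0.54, SE) were below that of Hoxd1 (-0.55 ± 0.24), on few counts. The intervals of Hoxd11 (2.77 to 4.29) and Hoxd10 (2.70 to 4.15) overlapped almost fully, and that of Hoxd9 (0.98 to 1.87) lay below both. Within the sexes the order of the first 2 differed. Hoxd10 was above Hoxd11 in females (3.36 and 3.03) and below it in males (3.48 and 4.02).

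**Figure D2:**
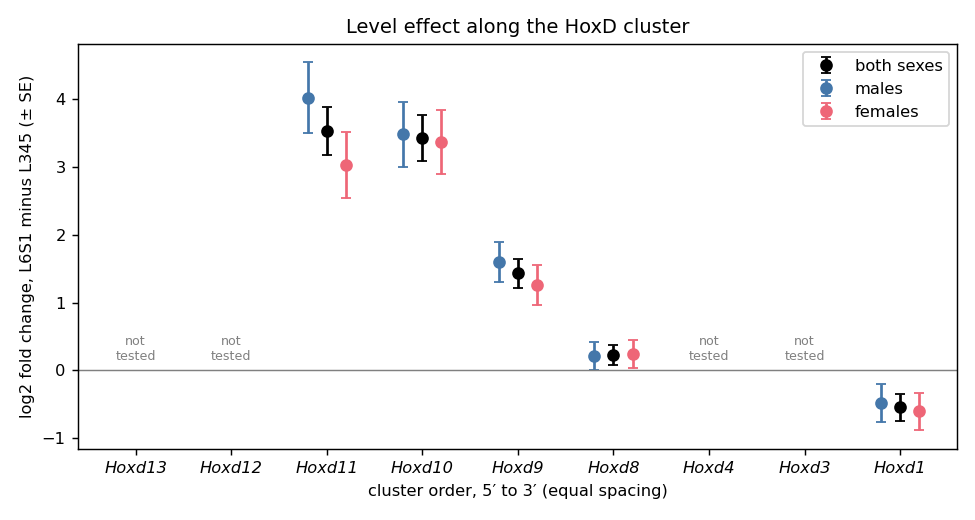
Log2 fold change (L6S1 minus L345, ± SE, from the edgeR fit) of the HoxD genes in cluster order for both sexes, males and females. Values go from 3.53 at Hoxd11 to -0.54 at Hoxd1, and 4 genes were not tested.

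Neighbouring genes were then compared by their ratios within each library, in which the library size cancels. These ratios reuse the counts above, in which Hoxd9, Hoxd10 and Hoxd11 were already separate between levels. Their p-values are therefore no independent support for the calls. The log2 ratio of Hoxd10 to Hoxd9 counts was 0.73 ± 0.90 in L345 (SD, n = 6; -0.95 to 1.55) and 2.96 ± 0.47 in L6S1 (2.38 to 3.79), a difference of 2.23 (exact permutation within sex, p = 0.005, two-sided). The ratio of Hoxd9 to Hoxd8 moved from -2.78 ± 0.33 to -1.57 ± 0.45 (SD, n = 6), a difference of 1.22 (exact permutation p = 0.005). Both ratios were separate between levels, with an adjusted p of 0.0075 over the 3 ratios (exact permutation), and 0.005 is the smallest p that the 400 arrangements can give. Since both ratios moved, they do not place the change at a single step. The ratio of Hoxd11 to Hoxd10 was -1.97 ± 0.38 in L345 and -1.77 ± 0.33 in L6S1 (SD, n = 6), with overlapping ranges and a difference of 0.20 (exact permutation p = 0.375, adjusted p = 0.375). That mean joined opposite differences in the sexes, 0.71 in males and -0.31 in females. In males the ratio was -2.55 to -1.80 in L345 and -1.74 to -1.31 in L6S1, and in females it was -1.91 to -1.63 in L345 and -2.15 to -1.91 in L6S1, so the levels did not overlap within either sex, although in females the nearest values were equal to 2 decimals. The difference between the sexes was -1.02 (females minus males; exact permutation of sex within level, two-sided p = 0.01, adjusted p = 0.03 over the 3 ratios). That test was added after the pattern had been seen in the same libraries, and the lowest male value rested on 3 counts of Hoxd11. Without male L345 B the difference was -0.85 (exact permutation p = 0.015), and over all 12 fits without 1 library it was -1.23 to -0.85 (exact permutation p from 0.005 to 0.025, unadjusted).

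**Figure D3:**
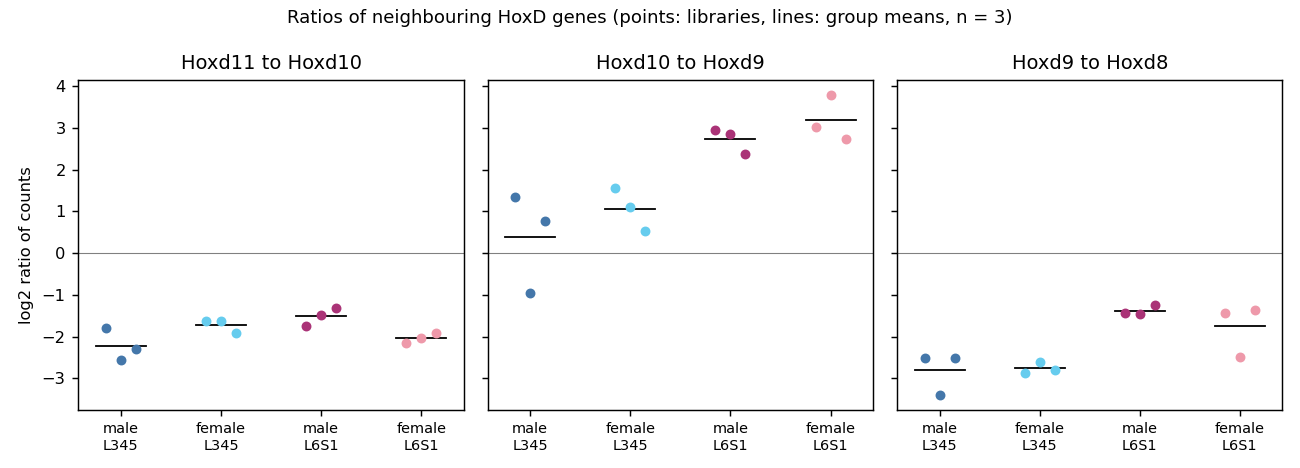
Log2 ratio of counts of neighbouring HoxD genes, with points for libraries and lines for the means of 3 libraries. Hoxd10 to Hoxd9 and Hoxd9 to Hoxd8 were separate between levels, and the lowest L6S1 value of the latter (-2.48) was that of female L6S1 B.

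Per kilobase of gene length, the order of the genes differed between levels. In L345 Hoxd8 led with 8.38 ± 1.35 RPKM (SD, n = 6), followed by Hoxd10 at 3.63 ± 1.61, Hoxd1 at 1.62 ± 0.32, Hoxd9 at 1.59 ± 0.39 and Hoxd11 at 0.438 ± 0.242 RPKM. Hoxd1 and Hoxd9 did not differ beyond their spread there. In L6S1 Hoxd10 led with 38.7 ± 7.03 RPKM, followed by Hoxd8 at 9.82 ± 2.05, Hoxd11 at 4.87 ± 0.82, Hoxd9 at 4.26 ± 0.93 and Hoxd1 at 1.11 ± 0.20 RPKM. Hoxd11 and Hoxd9 did not differ beyond their spread in L6S1. Of the 7 genes with more than 1 count in all, Hoxd4 and Hoxd3 were lowest at both levels, at 0.104 and 0.0883 RPKM in L345 and 0.0446 and 0.0443 RPKM in L6S1, and their ranges overlapped.

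Summed over the 9 genes, the cluster gave 15.8 ± 2.75 RPKM in L345 (10.9 to 18.4) and 58.9 ± 8.90 RPKM in L6S1 (45.6 to 73.1; SD, n = 6). Hoxd8 made up 53.7 ± 9.35% of that sum in L345 and 16.6 ± 1.26% in L6S1. Hoxd10 made up 22.0 ± 9.32% and 65.6 ± 3.48%. The shares of Hoxd9, Hoxd10 and Hoxd11 together were 14.0 to 44.4% in L345 libraries and 79.4 to 82.7% in L6S1 libraries. The range was wider in L345, but its lowest value was that of male L345 B alone. The female L345 libraries had 31.5 to 41.7%. Hoxd1 made up 10.4 ± 2.28% and 1.91 ± 0.42%. These shares are a description of the same counts and carry no test of their own.

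**Figure D4:**
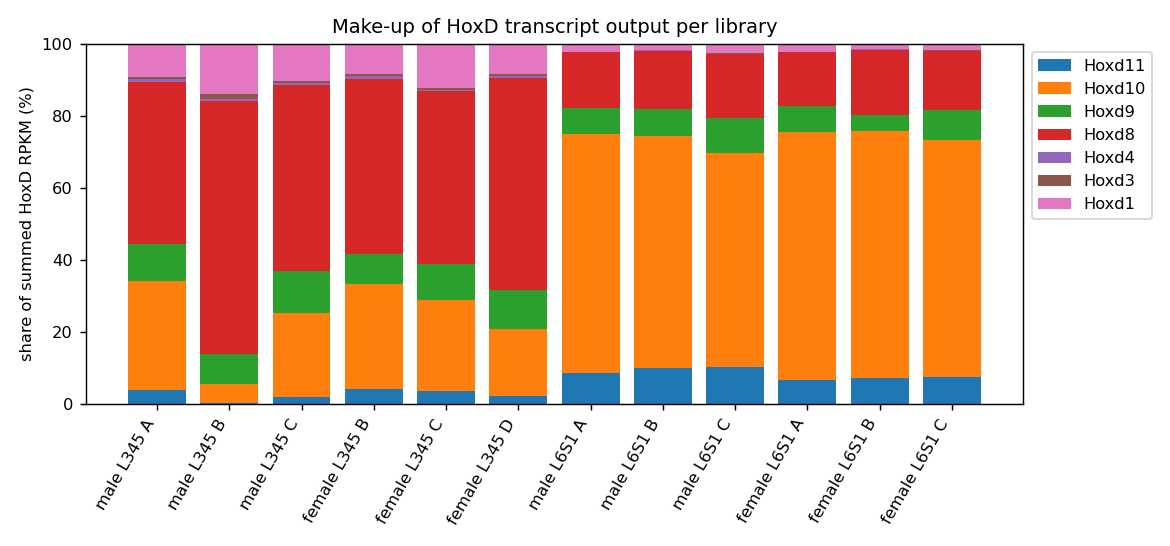
Share (%) of the summed RPKM of the HoxD genes taken by each gene in each library. Hoxd8 was the largest share in the L345 libraries (up to 70.2% in male L345 B), and Hoxd10 was the largest in the L6S1 libraries (59.4 to 68.9%).

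The level effect was then read within each sex from the same fit. In males Hoxd11 rose by 4.02 ± 0.52, Hoxd10 by 3.48 ± 0.48 and Hoxd9 by 1.60 ± 0.30 on the log2 scale (SE; edgeR adjusted p = 0.00465, 0.00688 and 0.0405), so 3 of 5 tested members were called, beside 0.222% of all genes. In females Hoxd10 rose by 3.36 ± 0.47 and Hoxd11 by 3.03 ± 0.48 (SE; edgeR adjusted p = 0.00518 and 0.0132), so 2 of 5 were called, beside 0.36% of all genes. For Hoxd9 in females the log2 fold change was 1.26 ± 0.29, with an edgeR adjusted p of 0.0881. Several of these calls depended on single libraries or settings. In males, Hoxd9 kept its call in 4 of the 12 fits that left out 1 library, and Hoxd10 and Hoxd11 kept theirs in all 12. In females, leaving out female L345 C ended the calls of both Hoxd10 (edgeR adjusted p = 0.0510) and Hoxd11 (0.0933), and leaving out female L345 B (0.0818) or D (0.0740) ended that of Hoxd11. A block for replicate letter ended both female calls too, with the values given in the last paragraph. That block joined males and females of the same letter, so it was not a pairing of female pools. Letter D occurred only in female L345 D, and female L6S1 A had no female L345 library of its letter. Both female calls also ended without female L6S1 B and C (edgeR adjusted p = 0.108 for Hoxd10 and 0.126 for Hoxd11), in the first title style alone (0.373 and 0.369) and with the fibroblast marker sum as a covariate (0.988 each). In males the first title style alone ended the calls of Hoxd10 (0.108) and Hoxd11 (0.0554), and that covariate ended all 3. Without the filter on low counts, Hoxd10 in males (edgeR adjusted p = 0.0862) and Hoxd11 in females (0.0522) missed the threshold, while Hoxd9 in females passed it (0.0115). Hoxd9 in females also passed with DESeq2 (adjusted p = 0.00291), and Hoxd9 in males missed it with a term for title style (edgeR adjusted p = 0.104).

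By edgeR, no member passed a test of the difference between the sexes in the level effect. Of the 5 tested members 0 were called for the interaction of level and sex, as were 0 of all genes (0%) in the edgeR fit. Over all genes, 714 had an unadjusted p under 0.05, and DESeq2 and limma-voom each called 2 genes. The largest member difference was that of Hoxd11, at -0.99 ± 0.67 on the log2 scale (females minus males, 95% interval -2.43 to 0.45, edgeR adjusted p = 0.871). Between females and males over both levels, 0 of 5 members were called, beside 0.0589% of all genes. The largest member value was 0.45 ± 0.31 for Hoxd10 (SE; log2, females minus males; edgeR adjusted p = 0.790).

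Male L345 B was the lowest of the L345 libraries for Hoxd9, Hoxd10 and Hoxd11, and for Hoxc10, with 5.73 CPM against 12.5 to 16.0 CPM in the other 5. For Hox genes called lower at L6S1 its place varied. It lay among the others for Hoxb7 (4.16 CPM, others 3.04 to 5.87 CPM), Hoxc9 (7.97 CPM, others 6.76 to 9.50 CPM), Hoxa5 and Hoxb6. It was the lowest for Hoxb5 (24.5 CPM, others 31.2 to 43.5 CPM), Hoxc6 (2.74 CPM, others 3.42 to 4.01 CPM) and Hoxa6 (0.254 CPM, others 0.371 to 0.600 CPM). For Hoxc8 it was the highest (2.54 CPM, others 1.56 to 2.34 CPM). It was a pool of 2 mice and 12 ganglia, as was female L345 C, which had 8.48 CPM of Hoxd10. Hoxa10, at 50.7 CPM, was the lowest of the L345 libraries there but close to the range of the others (53.6 to 60.3 CPM). Without male L345 B the log2 fold changes were 3.27 ± 0.23 for Hoxd11, 3.18 ± 0.16 for Hoxd10 and 1.31 ± 0.20 for Hoxd9 (SE; edgeR adjusted p = 1.11e-05, 5.15e-07 and 0.00767), with the same 3 genes called.

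The title style is a further difference between libraries, and it did not divide evenly, since all male L345 libraries had the first style. With a term for the style, Hoxd11, Hoxd10 and Hoxd9 differed by 3.53, 3.46 and 1.35 on the log2 scale (edgeR adjusted p = 0.000842, 0.000565 and 0.0106). Among the 8 libraries of the first style alone, Hoxd10 differed by 3.30 ± 0.55 on the log2 scale and no longer passed the test (edgeR adjusted p = 0.0519), while Hoxd11 (3.26 ± 0.50, edgeR adjusted p = 0.0322) and Hoxd9 (1.41 ± 0.22, edgeR adjusted p = 0.00436) did. The 4 libraries of the second style held no male L345 library and were too few for a value of their own.

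Markers of other cells also moved with level. Of 8 tested fibroblast and meningeal markers 1 was called, beside 2.33% of all genes. It was Dcn, which encodes the matrix proteoglycan decorin. It had 64.3 ± 9.72 CPM in L345 and 213 ± 70.9 CPM in L6S1 (SD, n = 6), and its log2 fold change was 1.67 ± 0.14 (edgeR adjusted p = 1.91e-05). The sum of the 11 listed markers was 72.6 to 96.5 CPM in L345, 127 to 184 CPM in male L6S1 and 286 to 332 CPM in female L6S1, but without Dcn it was 12.9 to 18.2 CPM in L345 and 10.5 to 17.3 CPM in 5 of 6 L6S1 libraries, with 81.0 CPM in female L6S1 C. With the full sum, whose ranges did not overlap between levels, as a covariate, no gene of any kind was called, and the values were 2.79 ± 1.63 for Hoxd11, 3.04 ± 1.54 for Hoxd10 and -0.49 ± 0.86 for Hoxd9 (SE, log2; edgeR adjusted p = 1.00 each). With the sum without Dcn, an alternative added after seeing the data, they were 3.52 ± 0.36, 3.42 ± 0.35 and 1.39 ± 0.21 (edgeR adjusted p = 0.000256, 0.000269 and 0.00338).

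Of 11 listed immune markers 7 were tested and 4 were called higher at L6S1, beside 1.45% of all genes. These 4 were H2-Aa, Cd74, Trac and C1qb, which serve antigen presentation, the T-cell receptor and complement. The other 3 tested markers, Csf1r, Lyz2 and Aif1, were not called (edgeR adjusted p = 0.108, 0.112 and 0.705), and Cd74 in male L6S1 C (1.32 CPM) lay inside the L345 range of 0.899 to 2.05 CPM. The 11 listed markers summed to 6.02 to 7.23 CPM in L345, 13.9 to 15.7 CPM in male L6S1 and 20.9 to 222 CPM in female L6S1, with the highest value in female L6S1 C. Without that library the log2 fold changes were 3.54, 3.46 and 1.35 for Hoxd11, Hoxd10 and Hoxd9 (edgeR adjusted p = 0.000359, 0.000332 and 0.00307). None of the 11 immune markers was at 0 in all libraries. Of 11 satellite glia and Schwann cell markers 0 were called, beside 2.33% of all genes, and their sums overlapped (3746 to 4415 CPM in L345 and 3954 to 4691 CPM in L6S1). Of the 14 sensory neuron markers 1 was called higher, the substance P precursor Tac1 (log2 fold change 0.58 ± 0.12, edgeR adjusted p = 0.0282). Of the muscle markers 1 was tested and called higher, Acta1 (0.95 ± 0.23, edgeR adjusted p = 0.0484), with a summed list level of at most 5.77 CPM, and 0 of 7 endothelial and mural markers and 0 of 2 erythroid markers were called. At the share over all genes, marker lists this short would hold few calls, so counts of 0 do not set them apart. The part of these other cells in the HoxD values was not tested beyond the covariate fits.

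Among the other genes around and inside the cluster none passed the test. Of 27 listed neighbours 23 were in the tables, 16 were tested and 0 were called in either direction, beside 2.33% of all genes. Their median log2 fold change was -0.16, beside -0.06 for all genes. A list of 16 tested genes would hold few calls at a share of 2.33%, so a count of 0 does not set it apart. The antisense RNA Haglr, which lies between Hoxd3 and Hoxd1 on the minus strand, had 5.71 ± 1.30 CPM in L345 and 4.42 ± 1.12 CPM in L6S1 (SD, n = 6), and the log2 difference was -0.36 ± 0.20 (edgeR adjusted p = 0.252). Hoxd3os1, an antisense RNA that starts near Hoxd3 and runs across the Hoxd8 region, had 2.47 ± 0.76 and 2.48 ± 0.34 CPM (0.02 ± 0.21, edgeR adjusted p = 0.963). Evx2, the homeobox gene beyond Hoxd13, and the microRNA gene Mir10b beside Hoxd4 were listed at 0 in all libraries.

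The flanking genes on the centromeric side, beyond Evx2, gave values of -0.41 for Lnpk, an endoplasmic reticulum protein gene, 0.10 for Atp5g3, an ATP synthase subunit, -0.42 for Wipf1, an actin regulator, 0.13 for Chn1, a Rac GTPase-activating protein that guides axons, and 0.27 for Chrna1, the muscle acetylcholine receptor subunit. Further members on the list were Gpr155 (-0.23), Scrn3 (-0.03), Cir1 (-0.03) and the transcription factor gene Sp3 (-0.30). On the telomeric side, beyond Hoxd1, the values were -0.41 for Mtx2, a mitochondrial import protein gene, -0.28 for Hnrnpa3, an RNA-binding protein gene, 0.03 for Nfe2l2, the oxidative stress regulator NRF2, -0.30 for Agps, an ether lipid synthesis enzyme, and -0.08 for Ttc30b, a ciliary transport gene. The smallest adjusted p among all of these was that of Wipf1 (edgeR, 0.0665), whose ranges did not overlap.

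The other Hox clusters showed where HoxD differed from its paralogues, the genes of the same group number in HoxA, HoxB and HoxC. Of 6 tested genes of groups 9 to 13 outside HoxD, 2 were called higher, Hoxc11 and Hoxc10, and 1 lower, Hoxc9, with a median log2 fold change of -0.25. Over all genes tested, 1.45% were called higher and 0.877% lower. Hoxc11 had 0.108 ± 0.126 CPM in L345 and 1.67 ± 0.64 CPM in L6S1 (SD, n = 6), from 0 to 8 and 24 to 58 counts. Its log2 fold change was 3.85 ± 0.57 (edgeR adjusted p = 0.00310). Hoxc10 rose from 12.5 ± 3.53 to 25.3 ± 3.93 CPM (1.03 ± 0.19, edgeR adjusted p = 0.0153). Hoxc9 fell from 7.92 ± 1.03 to 4.50 ± 1.19 CPM (-0.81 ± 0.19, edgeR adjusted p = 0.0387), whereas its HoxD paralogue rose. Hoxa10 had 55.9 ± 3.33 and 46.1 ± 8.78 CPM and was not called (-0.30 ± 0.11, edgeR adjusted p = 0.120).

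Of 16 tested Hox genes of groups 1 to 8 outside HoxD, 0 were called higher and 7 lower, with a median of -1.09. The shares over all genes tested were 1.45% and 0.877%. The 4 with the largest falls were Hoxb7 (-3.06 ± 0.23), Hoxb6 (-2.41 ± 0.26), Hoxa6 (-2.13 ± 0.47) and Hoxc6 (-2.05 ± 0.39), all genes of thoracic and brachial levels (SE, log2; edgeR adjusted p from 1.30e-05 to 0.0345). Hoxd8 was thus not called, while its paralogue Hoxc8 was called lower (-1.11 ± 0.24, edgeR adjusted p = 0.0327). The difference between these 2 genes was not tested.

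Ratios of HoxD genes to their paralogues within each library were computed for 6 pairs, chosen after the values had been seen. Because the changes of the single genes were known when the pairs were chosen, the ratios are a description and carry no test. The mean log2 ratio was higher in L6S1 than in L345 by 3.96 for Hoxd10 to Hoxa10, 2.59 for Hoxd10 to Hoxc10, 2.28 for Hoxd9 to Hoxc9 and 2.05 for Hoxd9 to Hoxa9, each with ranges that did not overlap. The difference was 1.37 for Hoxd9 to Hoxb9, a pair with 0 to 33 Hoxb9 counts per library, and -0.49 for Hoxd11 to Hoxc11, and the ranges overlapped in both. In L345 the mean log2 ratio of Hoxd10 to Hoxa10 was -3.35 ± 1.13 (SD, n = 6; counts, not per length), and in L6S1 it was 0.61 ± 0.18.

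**Figure D5:**
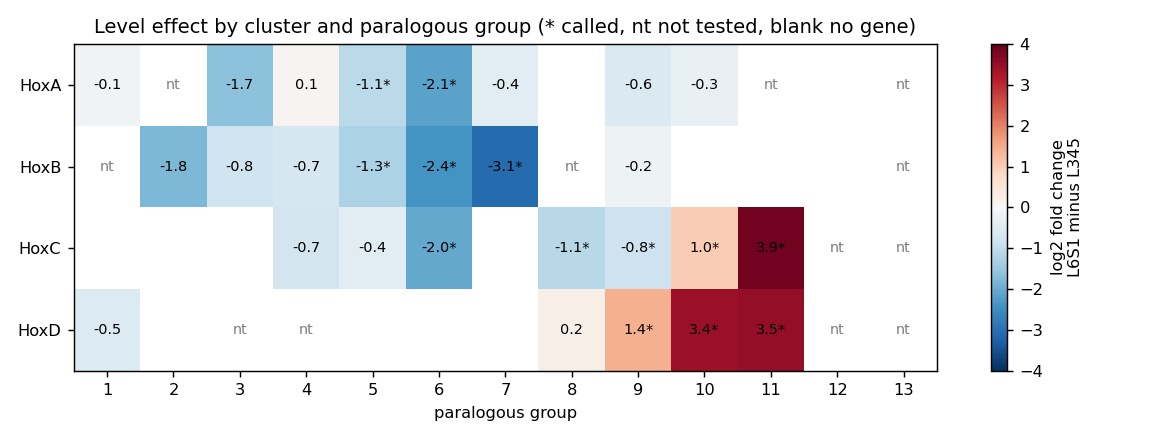
Log2 fold change (L6S1 minus L345) of every Hox gene tested, by cluster (rows) and paralogous group (columns), with asterisks for genes called by edgeR. Groups 9 to 11 of HoxD and groups 10 and 11 of HoxC were higher in L6S1, and 7 genes of groups 5 to 8 and Hoxc9 were lower.

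Genes that act with or on Hox genes were compared as lists. Over all genes tested, 2.33% were called in either direction. Lists as short as these would hold few calls at that share, so a count of 0 does not set them apart. Of 9 TALE homeodomain cofactors (Meis, Pbx and Pknox genes, whose proteins bind DNA together with Hox proteins) 9 were tested and 0 called, with a median log2 fold change of -0.08. Of 39 genes of Polycomb and trithorax complexes, histone demethylation and cohesin or CTCF-based folding, which keep Hox clusters silent or open, 39 were tested and 0 called, with a median of -0.25. Of 23 listed inputs to axial patterning (Cdx, Gdf11, retinoic acid, Wnt and Fgf genes) 20 were in the tables, 11 were tested and 0 called, with a median of -0.35, and Cdx2, Wnt3a and Fgf8 were listed at 0 in all libraries. Tgfbr1 (-0.83 ± 0.21, edgeR adjusted p = 0.0501) and Mstn (1.62 ± 0.42, edgeR adjusted p = 0.0572) came closest to the threshold, in opposite directions.

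Outside the Hox clusters, the 5 genes whose centred log2 CPM over the 12 libraries was closest to that of Hoxd10, among 11652 tested genes averaging 2 CPM or more, were Chrna3, Qpct, Chrnb4, Cbln1 and Esr1. Chrna3 and Chrnb4 encode nicotinic acetylcholine receptor subunits, Qpct glutaminyl cyclase, Cbln1 a secreted synapse organiser and Esr1 oestrogen receptor alpha. Their root mean square differences from Hoxd10 were 0.944, 1.01, 1.04, 1.06 and 1.06 log2 units. Hoxd11 was far closer at 0.286, while Hoxd9 stood at 1.28, Hoxd8 at 1.87 and Hoxd1 at 2.23. Chrna3 had 5.50 ± 1.51 CPM in L345 and 45.9 ± 25.8 CPM in L6S1 (SD, n = 6), a wider spread within L6S1 than that of Hoxd10 (70.3 ± 12.8 CPM). Likeness over 12 libraries that differ chiefly by level is a description of these libraries.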

How the data were processed

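Each library's table, as the authors deposited it, holds whole-number counts, CPM and RPKM per Ensembl gene. Subread alignment (version not given), counting with featureCounts 1.4.5 and build GRCm38.p2 come from the submitters' processing notes. Annotation release and strand use: not given in the sources used here. In all 12 libraries the deposited CPM matched counts scaled by the table's total, and the RPKM the authors deposited matched CPM divided by gene length. Tests used the counts alone, with edgeR 4.0.16 in R 4.3.3 (TMM, filterByExpr by group, robust quasi-likelihood fit of 4 group means, 8 residual degrees of freedom, Benjamini-Hochberg over 15281 genes, called under 0.05). TMM-scaled CPM and RPKM in the text were computed from the counts. The level contrast is the L6S1 mean minus the L345 mean with sexes weighted equally. Neighbour ratios used counts plus 0.5 and exact permutation of level within sex, and of sex within level as an addition after the data were seen, and 95% intervals use the t quantile of the fit.

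Members and lists were chosen with earlier results of these data known. Genes named were all members, up to 4 called members of each list, the tested neighbours and the 5 genes closest to Hoxd10. Others named (Hoxc8, Hoxa5, Hoxb5, Hoxa9, Hoxa10, Hoxb9, Evx2, Mir10b, Tgfbr1, Mstn, genes at 0) were added after their values were seen. DESeq2 1.42.0, limma-voom 3.58.1, other scaling and filters, a title-style term, a replicate block, a length offset, marker covariates and left-out libraries were alternatives. The fit was tested on simulated counts. Promoters came from a RefSeq table (GRCm38.p6).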

Additional observations from a re-analysis of the deposited data

Results flagged for a closer look

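In 16 groups of 6 libraries (the tested members and their ratios at each level), 3 held a library far from the other 5. Chance gives about 1 in 20 for independent groups of normal values. These groups join both sexes, and the ratios reuse the counts of the members, so 3 of 16 is not read as an excess. Hoxd10 in male L345 B was 1.01 CPM, against 6.20 to 8.62 CPM in the other L345 libraries. Hoxd1 in female L345 C was 4.18 CPM, against 2.55 to 3.02 CPM. The log2 ratio of Hoxd9 to Hoxd8 in female L6S1 B was -2.48, against -1.46 to -1.24 in the other L6S1 libraries, with Hoxd8 at its highest (36.6 CPM) and Hoxd9 at its lowest L6S1 value (6.56 CPM) in that library. The level difference in the log2 ratio of Hoxd11 to Hoxd10 had opposite signs in the sexes, with a difference of -1.02 (females minus males; exact permutation p = 0.01, adjusted p = 0.03 over 3 ratios, tested after the pattern was seen).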

How the results depend on the processing

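The 3 HoxD genes called for level were called in every fit that left out 1 library and in the other alternatives, except that 0 were called with the full fibroblast marker covariate, in which Hoxd9 changed sign (-0.49), and 2 among the 8 libraries of the first title style, where Hoxd10 missed the threshold. The count of all genes called for level moved far more than that of HoxD: 1518 with DESeq2, 3268 with limma-voom, 841 without the filter, 125 with the title-style term, 137 without female L6S1 B and C, 0 with the fibroblast covariate, and 80 to 4031 with 1 library left out. It rose to 4031 without female L6S1 A and to 883 without female L345 D, and lay between 80 and 186 without any 1 of the male libraries or of female L345 B and C. Within males, all-gene calls were 109 with DESeq2, 1864 with limma-voom, 78 without the filter, 197 in the first title style, 133 without female L6S1 B and C, 0 with the fibroblast covariate and 9 to 60 with 1 library left out. HoxD calls within males were 1 in the first style, 0 with the covariate and 2 to 3 with 1 library left out. Within females, all-gene calls were 750 with DESeq2, 256 without the filter, 0 with the covariate, 24 without female L6S1 B and C and 17 to 3843 with 1 library left out (3843 without female L6S1 A). HoxD calls within females were 0 in the first style, with the covariate and without female L6S1 B and C, and 0 to 3 with 1 library left out (3 without female L6S1 A, 0 without female L345 C). The interaction gave 2 genes with DESeq2, 2 with limma-voom, 3 without the filter and 0 to 817 with 1 library left out (817 without female L6S1 A), and the sex contrast gave 31 with DESeq2, 24 without the filter and 7 to 991 with 1 library left out (991 without female L6S1 A), with 0 HoxD genes in every case. By unadjusted exact permutation p, Hoxd10 to Hoxd9 and Hoxd9 to Hoxd8 gave 0.005 to 0.0333 in their 16 alternatives each (0.0333 in the first title style, the smallest its 30 arrangements gave), and Hoxd11 to Hoxd10 gave 0.265 to 0.833. The cause of these shifts was not tested.

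Replicate letters were not taken to pair libraries, since no source used here says whether pools shared mice. Same-letter correlations of deviations from the group means were 0.018 to 0.233 over 5 pairs, 1 of them above 0.1. Pairs of different letters within a sex gave -0.300 to 0.239. Of 10 libraries, 8 correlated best with their own letter. Whether the letters mark shared mice was not tested. With a replicate block, which joined libraries of the same letter across the sexes, 1985 genes were called for level, against 356 without it. The number of HoxD genes called was the same (3). Within females 0 HoxD genes were called with the block (edgeR adjusted p = 0.0606 for Hoxd10 and 0.0611 for Hoxd11). Depth limits what can be said of Hoxd3, Hoxd4, Hoxd12 and Hoxd13.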
